A study of Mus musculus with 18 samples.

Results

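Isolated CpGs that were unmethylated in all 3 tissues of mouse offspring are described here, that is CpG sites with few listed CpGs around them and few methylated reads in gonadal adipose tissue, hypothalamus and liver. They were chosen from the measured levels. A site on chromosomes 1 to 19 had to be listed in the tables of all 3 tissues with at least 20 reads in each of the 6 pools, to have at most 2 other listed CpGs within 100 bp on either side, and to be at most 20% methylated in each tissue over both pools. Of 1985111 CpGs listed in any table, 1503789 on these chromosomes were in all 3 tables and 1275720 had enough reads. Of these, 342628 were isolated, and 12235 of the isolated CpGs (3.57%) met the limit on the level.

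The study concerns DNA methylation after exposure in the womb to bisphenol A (BPA), a building block of polycarbonate plastics that can act weakly on oestrogen receptors. C57BL/6 dams on a diet low in plant oestrogens were gavaged each day with 5 mg of BPA per kg in corn oil, or with the oil alone, from day 1 to day 20 after conception. Tissues came from male offspring aged 3 weeks, which were born in 4 BPA litters and 3 control litters and kept on standard chow. For each tissue, 3 BPA samples and 3 corn oil samples were measured by reduced representation bisulfite sequencing (RRBS), which cuts DNA with the enzyme MspI at CCGG and reads single CpGs in the resulting fragments. The deposited tables join the 3 samples of a group into 1 pool, so no value has an error between animals, and intervals cover counting error only. The pools carry the numbers 0 and 1, and 0 was read as control and 1 as BPA because a label names control first. If the numbering were the reverse, every direction between pools would turn.

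In mammals, most CpGs outside CpG islands carry methyl groups, which DNMT1 copies at each replication and DNMT3A and DNMT3B place anew. CpG islands, the dense CpG stretches at many promoters, are mostly free of methylation, and CXXC domain proteins bind such CpGs and bring histone H3 lysine 4 methylation, which repels the DNMT3 enzymes. The flanks of an island, its shores, have fewer CpGs and are the places where methylation often differs between tissues.

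Summed over sites, coverage was 213672622 to 409016549 reads per pool, a read being counted at each CpG it covers, and the median was 93 to 164 reads per listed site. Marker genes were set against the tissue labels by the pooled level over all CpGs with enough reads in the gene body. Hepatocyte genes were lowest in liver for 10 of 12 genes, adipocyte genes lowest in adipose for 9 of 14, neuron genes lowest in hypothalamus for 9 of 15, and astrocyte and oligodendrocyte genes lowest in hypothalamus for 7 of 15. For other cells that fat could hold, endothelial genes were lowest in adipose for 5 of 12, leukocyte genes for 2 of 9 and epididymis and testis genes for 2 of 7. Liver was lowest for 5, 4 and 4 genes of these lists, so they did not point to adipose.

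The reference sequence around some of these CpGs shows what isolated means here. The windows are reference letters of build GRCm38.p6 from RefSeq, 5′ to 3′ on the strand of the gene that begins just after them, with the measured CpG in capitals. A first pair, before Sgk1, a glucocorticoid-induced kinase, and Spock3, a matrix proteoglycan, holds the only 2 sites with a full window and no other CpG in the reference within 100 bp.
Sgk1, chr10:21882080-21882181, plus strand: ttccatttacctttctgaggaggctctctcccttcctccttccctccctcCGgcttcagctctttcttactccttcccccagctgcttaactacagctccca
Spock3, chr8:62951074-62951175, plus strand: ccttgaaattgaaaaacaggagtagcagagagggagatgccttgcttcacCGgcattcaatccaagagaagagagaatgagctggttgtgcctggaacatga
The next pair had no methylated read in any of the 6 pools, and lies before Gm51458 and before Tex10, which takes part in ribosome maturation.
Gm51458, chr7:127636948-127637049, plus strand: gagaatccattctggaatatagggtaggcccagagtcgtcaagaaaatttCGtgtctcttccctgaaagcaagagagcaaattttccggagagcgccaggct
Tex10, chr4:48473537-48473638, minus strand: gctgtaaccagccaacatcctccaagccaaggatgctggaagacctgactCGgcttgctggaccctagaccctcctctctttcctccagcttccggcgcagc
The next pair lies before Trim32, a ubiquitin ligase, and Lsg1, a GTPase of ribosome assembly. The CpG lies in an MspI site within an ETS core, the letters CCGGAA, bound by ETS transcription factors. In both windows the core reads on the other strand.
Trim32, chr4:65604809-65604910, plus strand: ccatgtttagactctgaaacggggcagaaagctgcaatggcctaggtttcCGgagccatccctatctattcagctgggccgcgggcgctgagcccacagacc
Lsg1, chr16:30587591-30587692, minus strand: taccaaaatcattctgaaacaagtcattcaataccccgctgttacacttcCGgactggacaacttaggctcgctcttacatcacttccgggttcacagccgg
In the next pair the CpG lies in a CRE core, TGACG, before the ribosomal protein gene Rps26, where it reads on the other strand, and before Lmcd1, a LIM domain protein of heart and muscle.
Rps26, chr10:128626637-128626738, minus strand: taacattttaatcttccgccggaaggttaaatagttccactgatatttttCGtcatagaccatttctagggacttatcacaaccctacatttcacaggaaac
Lmcd1, chr6:112273581-112273682, plus strand: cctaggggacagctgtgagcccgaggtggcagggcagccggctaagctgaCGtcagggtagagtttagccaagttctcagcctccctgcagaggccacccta
The next pair lies over 5 kb from any cluster of unmethylated CpGs, before D130040H23Rik and Dglucy, a D-glutamate cyclase.
D130040H23Rik, chr8:69270880-69270981, plus strand: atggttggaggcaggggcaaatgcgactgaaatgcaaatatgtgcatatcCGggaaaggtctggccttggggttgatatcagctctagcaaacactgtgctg
Dglucy, chr12:100778917-100779018, plus strand: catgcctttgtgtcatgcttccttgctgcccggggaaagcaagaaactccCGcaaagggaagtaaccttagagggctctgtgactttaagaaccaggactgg
The site before Gm36486 was one of those called between the adipose pools.
Gm36486, chr17:29437661-29437762, minus strand: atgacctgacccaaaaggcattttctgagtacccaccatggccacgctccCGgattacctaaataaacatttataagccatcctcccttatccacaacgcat
For contrast, an isolated CpG before Gm30325 was methylated, and a CpG before the MHC gene H2-Q6 was unmethylated with 8 listed neighbours.
Gm30325, chr5:5479034-5479135, plus strand: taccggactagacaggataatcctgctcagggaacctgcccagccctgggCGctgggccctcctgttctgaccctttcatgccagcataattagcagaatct
H2-Q6, chr17:35424739-35424840, plus strand: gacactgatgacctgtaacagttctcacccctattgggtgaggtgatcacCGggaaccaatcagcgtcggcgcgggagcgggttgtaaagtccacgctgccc

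At the Sgk1 site the level was 9.05% of 453 reads in the BPA pool and 9.41% of 489 reads in the control pool of adipose. It was 3.03% of 264 reads in the BPA pool and 1.93% of 259 in the control pool of hypothalamus, and 11.2% of 384 and 6.83% of 366 reads in those of liver. The Spock3 site had 7.43% of 377 reads in BPA adipose and 4.59% of 305 in control adipose. Its hypothalamus pools had 1.98% of 253 reads in BPA and 1.37% of 219 in control, and its liver pools 2.82% of 319 and 8.41% of 333. Both sites were lowest in hypothalamus. Dglucy went the other way, with 15.5% of 238 reads in the BPA pool and 12.4% of 249 in the control pool of hypothalamus, against tissue levels of 1.12% in adipose and 0.860% in liver. The D130040H23Rik site was at 1.17%, 1.16% and 0.694% in adipose, hypothalamus and liver, 86411 bp from the nearest clustered unmethylated CpG. The contrast site of Gm30325 was at 87.2%, 86.9% and 90.5% in the same tissues.

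The sites are isolated in the tables more than in the genome. For 238 of them a promoter window covered 100 bp on both sides, and the reference held a median of 5 other CpGs there, against a median of 2 listed. In 192 of the 238 (80.7%) the reference held over 2. Other isolated CpGs, those over 20% in some tissue, had a median of 2 in the reference (542 sites), and clustered unmethylated CpGs, those with over 2 listed neighbours and at most 20% in all tissues, had 19 (32980 sites). RRBS in general reads the ends of size-selected MspI fragments and not the whole promoter. The windows reach 250 bp before and 50 bp after a start, so these counts come from the promoter edge of the set alone. Beside them stands the base composition: the median GC content was 55.9% around the isolated unmethylated CpGs, 52.0% around other isolated CpGs and 68.3% around clustered unmethylated CpGs.

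The MspI site CCGG held 58.6% of the 846 isolated unmethylated CpGs within promoter windows (exact 95% interval 55.2 to 62.0), 61.2% of 1584 other isolated CpGs (58.8 to 63.6) and 12.0% of 92750 clustered unmethylated CpGs (11.8 to 12.2). Most isolated CpGs in promoters, methylated or not, were thus CpGs of the cut site. The ETS core CCGGAA contains CCGG and held 9.69% of the isolated unmethylated CpGs, 9.91% of other isolated CpGs and 1.66% of clustered unmethylated CpGs. Among CpGs in an MspI site the shares were 16.5%, 16.2% and 13.8% in the same order, with overlapping intervals. The GC box GGGCGG held 1.42% of the isolated unmethylated CpGs, 1.70% of other isolated CpGs and 6.66% of clustered unmethylated CpGs. For the CRE core TGACG the shares were 1.06%, 1.52% and 1.73% in the same order. The E-box CACGTG held 5 sites, the YY1 core GATGGCG 2, and the NRF1 part GCGCATG and the CTCF part CCGCGNGG none of the 846, which allows a share of up to 0.435% for either. All motifs were searched on both strands.

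Of all 31396 promoter windows searched, 53.5% held CCGG, 15.1% CCGGAA, 36.0% GGGCGG, 21.0% TGACG, 7.14% CACGTG, 6.40% CCGCGNGG, 3.90% GCGCATG and 3.54% GATGGCG. Of the 584 windows with an isolated unmethylated CpG, 100% held CCGG, 33.7% CCGGAA, 47.1% GGGCGG and 19.9% TGACG. In the same 584 windows CACGTG was in 7.88%, CCGCGNGG in 4.62%, GCGCATG in 2.91% and GATGGCG in 5.14%. RRBS covers CpGs near CCGG, so the 100% comes with the method, and all windows are not a like background. CCGGAA contains CCGG, and 4733 of all 16790 windows with CCGG held it, against 197 of the 584. Covered windows without such a CpG were not compared. Within the 846 sites, the 496 in an MspI site had median levels of 2.21% in adipose, 1.66% in hypothalamus and 1.49% in liver. The 350 sites outside one had 0.860%, 1.22% and 1.16%. The gap was widest in adipose. End repair fills in bases at the cut site, and trimming of them before counting is not described in the sources used here, so its part in these levels was not tested.

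The levels of the 12235 sites, which the choice of sites bounds at 20%, had higher medians than those of clustered unmethylated CpGs. The median site was at 2.67% in the BPA pool and 2.70% in the control pool of adipose. In hypothalamus the medians were 3.21% in the BPA pool and 2.72% in the control pool, and in liver 2.48% and 2.50%. The tissue medians over both pools were 2.71%, 2.96% and 2.47% in adipose, hypothalamus and liver, against 0.504%, 0.714% and 0.758% for clustered unmethylated CpGs and 85.2%, 88.5% and 84.7% for other isolated CpGs. The median site had 228 reads in the BPA pool and 206 in the control pool of adipose. The hypothalamus pools had 118 and 116, and the liver pools 168 and 178.

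**Figure D1:**
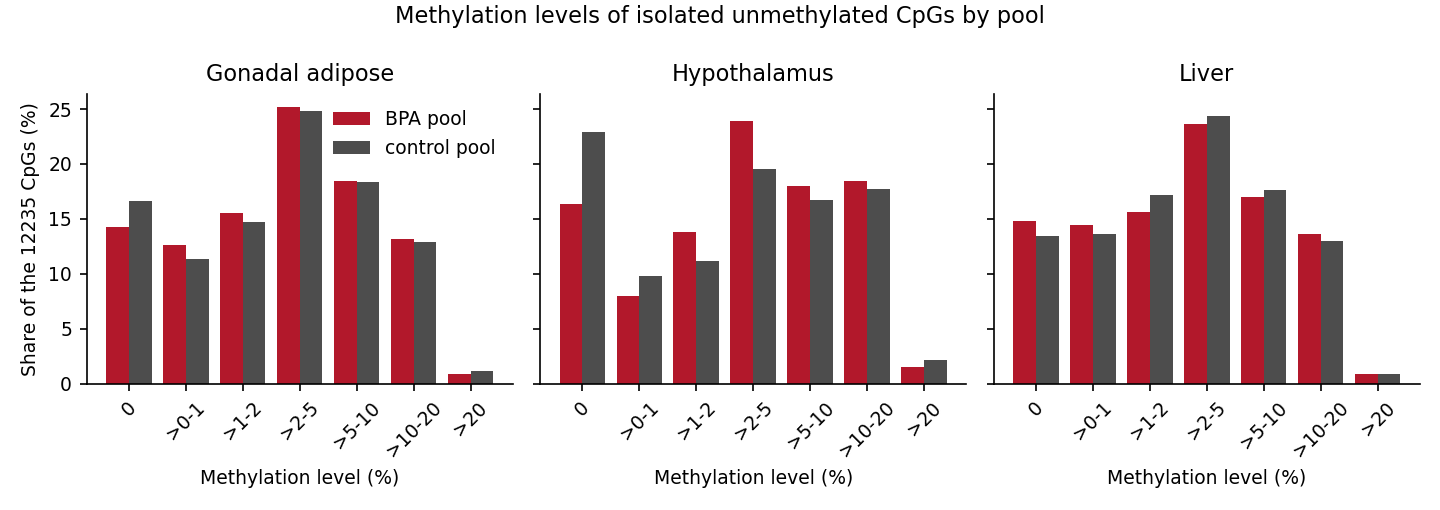
Share of the 12235 isolated unmethylated CpGs (y axis, %) in each class of methylation level (x axis, %), for the BPA pool (red) and the control pool (grey) of each tissue. In hypothalamus 2001 sites of the BPA pool and 2804 of the control pool had no methylated read.

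No methylated read was seen at 1741 sites in the BPA pool and 2039 in the control pool of adipose. Hypothalamus had 2001 such sites in the BPA pool and 2804 in the control pool, and liver 1816 and 1641. In all 6 pools at once, 120 sites had none. The one with the most reads was beside Gm4691 on chromosome 6, with 336 and 278 reads in the BPA and control pools of adipose, 153 and 136 in those of hypothalamus, and 218 and 224 in those of liver. The next were in Timm10b, a chaperone of mitochondrial protein import, in Puf60, a splicing factor, before Gm51458, and in Rpl22, a ribosomal protein. The Rpl22 site had 154 and 138 reads in the BPA and control pools of adipose, 100 and 92 in those of hypothalamus, and 199 and 192 in those of liver. A level of at most 1% in every tissue was met by 1140 sites (9.32%) and one of at most 10% by 8440 (69.0%). Just inside the limit stood sites in Rspo1, a Wnt pathway ligand, at 20% in hypothalamus with 11.3% in adipose and 2.40% in liver, and in the splicing factor gene Srsf1 at 19.9978% in hypothalamus. Just outside stood a site in the chemokine receptor gene Ccr10 at 20.0028% in liver, with 7.55% in adipose and 9.56% in hypothalamus.

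The limit of 20% in every tissue holds the gap between the highest and the lowest tissue to at most 20 points, so gaps are given as a description. The gap had a median of 3.09 percentage points, and was over 10 points at 1580 sites (12.9%). Of these 1580, 884 were highest in hypothalamus, 410 in liver and 286 in adipose. The widest gap was 19.4 points in Gm12679, with 19.1% of 94 reads in the BPA pool and 21% of 81 reads in the control pool of hypothalamus. The same site had 0% of 178 and 2.39% of 209 reads in adipose, and 0% of 161 and 1.23% of 163 reads in liver. Beside S1pr1, the receptor through which sphingosine 1-phosphate acts on endothelium and lymphocytes, hypothalamus had 20.2% of 243 reads in the BPA pool and 19.6% of 250 in the control pool, against tissue levels of 1.56% in adipose and 0.933% in liver. A site in Gm9895 was likewise high in hypothalamus, at 19.5%, with 3.41% in adipose and 0.637% in liver. In Gramd1b, a carrier of cholesterol to the endoplasmic reticulum, liver was high, with 21.2% of 118 reads in the BPA pool and 17.9% of 123 in the control pool, against 3.30% in adipose and 0.580% in hypothalamus. Beside Cd248, a marker of stromal cells and pericytes, adipose was low at 0.425%, against 18.0% in hypothalamus and 19.5% in liver. The liver value there joins 26.7% of 45 reads in the BPA pool and 9.38% of 32 in the control pool. Fewer cells of an unmethylated type and a change within cells cannot be told apart in bulk tissue.

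Position, which the choice of sites did not use, differed between the isolated unmethylated CpGs and other isolated CpGs. Within 1 kb of a gene start lay 5226 of 11875 (44.0%, exact interval 43.1 to 44.9), against 3.50% of 319382 other isolated CpGs (3.43 to 3.56) and 67.6% of 460645 clustered unmethylated CpGs (67.5 to 67.8). Chromosome 18 is left out of these shares, since gene starts there were not used here. The starts used on other chromosomes are not complete either. A site in the body of Puf60, for one, had its nearest used start at another gene, Gm28114, over 50 kb away. Shares near a start can thus be too low and shares far from one too high. These intervals treat sites as independent, while 6382 of the 12235 (52.2%) have another of them within 100 bp, and so they are too narrow. Over 50 kb from any start used here lay 11.1%, against 33.5% of other isolated CpGs and 8.80% of clustered unmethylated CpGs. A gene body held 68.1%, 56.2% and 82.6% in the same order. Exons and introns were not used here.

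**Figure D2:**
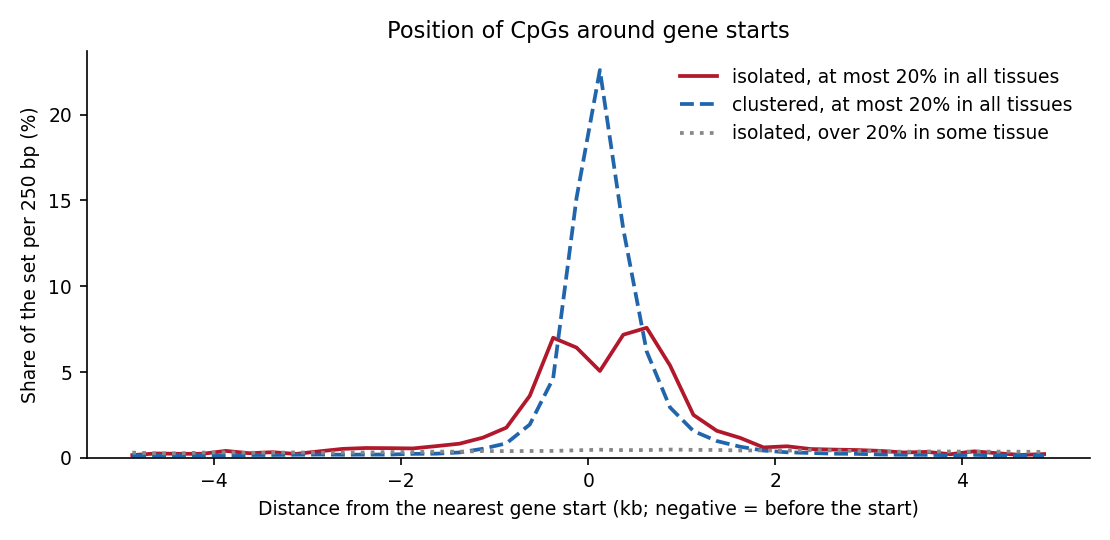
Share of each set per 250 bp (y axis, %) by distance from the nearest gene start used in kb (x axis, negative before the start). Lines show isolated unmethylated CpGs (red), clustered unmethylated CpGs (blue, dashed) and other isolated CpGs (grey, dotted). The starts used are not complete. The red line has its high points on both sides of the start, at 6.998% and 7.58%, and the blue line has its high point of 22.6% in the first 250 bp after it.

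Around the start itself the isolated unmethylated CpGs were placed differently from the clustered ones. The sets are parted by the number of listed neighbours, which can itself vary with distance from a start, so these shares are descriptions. Their share was 6.998% from 500 to 250 bp before the start, 5.06% in the first 250 bp after it and 7.58% from 500 to 750 bp after it. Clustered unmethylated CpGs had 4.62%, 22.6% and 6.20% in these places. From 500 to 1000 bp on either side lay 18.3% of the isolated unmethylated CpGs, 11.9% of the clustered ones and 1.73% of other isolated CpGs. Within 250 bp the shares were 11.5%, 37.8% and 0.917%. Distance to the nearest clustered unmethylated CpG gave the same contrast: 72.5% of the isolated unmethylated CpGs lay within 500 bp of one, against 1.98% of other isolated CpGs, and 34.7% against 0.331% lay within 100 bp.

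The median level was higher at each longer distance up to 5 kb. The 4248 sites within 100 bp of a clustered unmethylated CpG had median levels of 2.10% in adipose, 1.87% in hypothalamus and 1.74% in liver. The 660 sites between 500 and 1000 bp had 4.05%, 4.98% and 3.81%. Between 1 and 5 kb the medians were 4.87%, 6.97% and 4.78%. The 2074 sites over 5 kb away (17.0% of all) had 4.45%, 6.94% and 4.73%. Hypothalamus was thus lower than adipose at the shortest distances and the highest tissue beyond 100 bp. The levels of clustered CpGs had part in choosing what a cluster is, so these are descriptions.

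**Figure D3:**
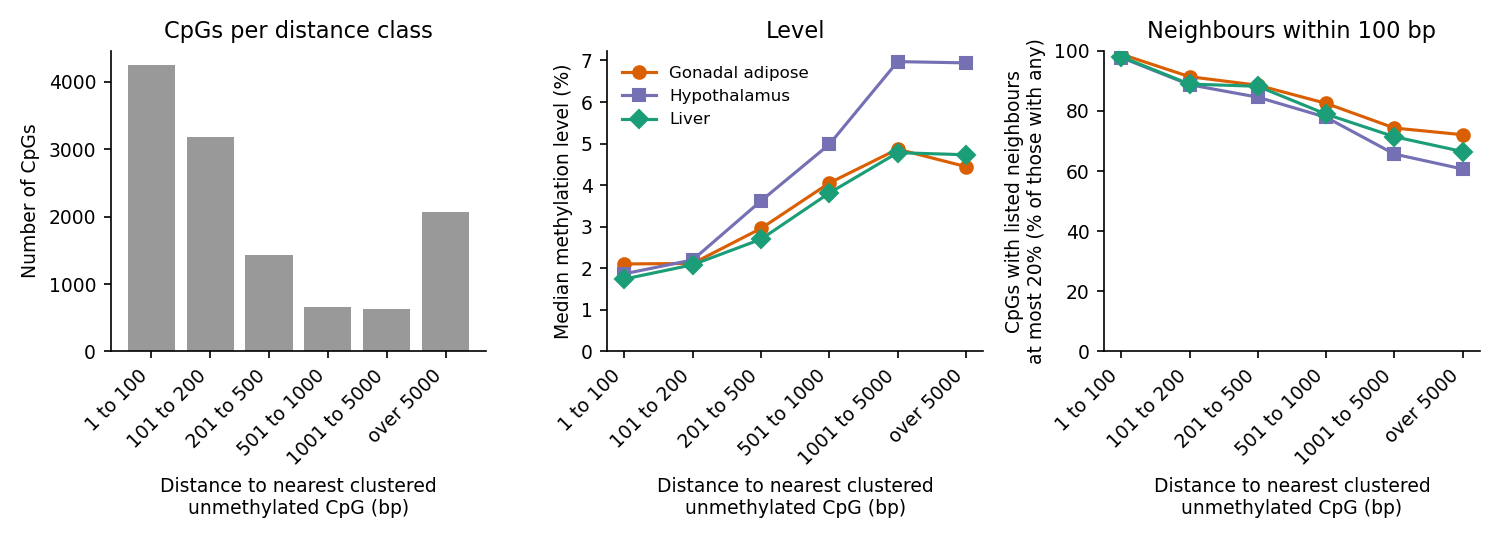
Isolated unmethylated CpGs by distance to the nearest clustered unmethylated CpG in bp (x axes): number of sites (left), median methylation level in % per tissue (middle), and share of sites whose listed neighbours within 100 bp average at most 20%, of those with any (right, %). From the shortest to the longest distance the hypothalamus median goes from 1.87% to 6.94%, and the share with unmethylated neighbours in hypothalamus from 97.7% to 60.7%.

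Where a site had listed neighbours, they were mostly unmethylated too. The neighbours' mean level had a median of 2.67% in adipose, 3.30% in hypothalamus and 2.85% in liver, against 82.4%, 86.6% and 82.4% beside other isolated CpGs. It was at most 20% for 89.7%, 85.9% and 87.6% of the isolated unmethylated CpGs. Many of these neighbours were themselves chosen by level, so the shares are descriptions. Another site of the set lay within 100 bp of 6382 sites (52.2%), and a clustered unmethylated CpG within 100 bp of 34.7%. With 0, 1 and 2 listed neighbours, 1.39%, 3.18% and 5.43% of isolated CpGs were unmethylated in all tissues. Over 5 kb from clusters the share with unmethylated neighbours was 72.1% in adipose, 60.7% in hypothalamus and 66.5% in liver, and neighbours at 80% or more stood beside 4.98%, 5.39% and 5.35%.

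In 74 sites over 5 kb from clusters, the neighbours averaged at least 80% in every tissue. Those with the most reads had very deep coverage. The deepest, in no gene on chromosome 10 at position 33497677, had 4.21% of 12252 reads in the BPA pool and 4.44% of 10549 in the control pool of adipose, 5.76% of 6941 and 5.75% of 6440 in hypothalamus, and 4.74% of 10373 and 4.62% of 10947 in liver. Its neighbours averaged 90.8%, 95.1% and 87.9% in adipose, hypothalamus and liver. The next, in Gm52725 on chromosome 4, had tissue levels of 3.92%, 4.44% and 3.99%, with neighbours at 88.6%, 87.3% and 87.1%. A site in E030030I06Rik, 1681 bp from a cluster, had the most reads summed over the 6 pools, with 0.607% of 46756 reads in the BPA pool and 0.576% of 42680 in the control pool of adipose, and neighbours at 92.6% to 95.2%. A pair in Myo3a, a myosin of hair cells, had up to 54351 reads in a pool. In all, 10 sites (0.0817%) had over 1000 reads in every pool, against 0.362% of all isolated CpGs, and 9 of the 10 lay over 5 kb from clusters, while the median site in a pool had 116 to 228 reads. Whether reads of other genome copies were counted at such sites was not tested.

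Genes were assigned by body or by a distance of at most 5 kb. By that rule 8154 genes held at least 1 isolated unmethylated CpG, among them 5772 of the 16996 protein-coding genes with an isolated CpG (34.0%), and 50 genes held at least 10. Transcription factors of organ formation led the count. Tbx5, a T-box factor of heart and forelimb, held 18 of 31 isolated CpGs, with median levels of 3.67% in adipose, 3.77% in hypothalamus and 2.38% in liver. Hdnr, a long noncoding RNA downstream of the heart factor gene Hand2, held 18 of 25. Pdx1, the pancreas homeobox factor, held 17 of 21, and Pax2, a paired-box factor of kidney and eye, 16 of 73. Among those with 13 were Pax7, a factor of muscle stem cells (13 of 51), Fbxl19, a CXXC protein that binds CpG islands (13 of 24), Irf2bp2, a corepressor (13 of 15), Rhof, a small GTPase (13 of 26), Maml3, a Notch coactivator (13 of 154), and Gm4724 (13 of 32). The entries Gm37013, Gm38666 and Gm38667 of the protocadherin cluster on chromosome 18 also held 13, which are the same sites counted for each, and were higher in adipose at 11.3% than in hypothalamus at 6.02% and liver at 4.31%.

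Gene lists separated in the same way. Of 32 homeobox, forkhead and related developmental factors, 29 held an isolated unmethylated CpG, and 126 of their 383 isolated CpGs (32.9%) were unmethylated in all tissues, against 3.57% of isolated CpGs in all. The 3.57% also covers isolated CpGs far from any gene, so it is not a like background for gene lists. Gene bodies held 8334 isolated unmethylated and 185744 other isolated CpGs. A share over sites within 5 kb of any gene was not taken. Pax2 led, followed by Foxf1, a forkhead factor of visceral mesoderm, with 9 of 15 at medians of 9.65% in adipose, 12.7% in hypothalamus and 5.51% in liver. These 9 lay within 5 kb of Foxf1, and 0 of them in its body. Ribosomal protein genes had 36 of 142 (25.4%) in 15 of 25 genes, such as Rpl27 with 6 of 12 and Rps6 with 4 of 7. Oxidative phosphorylation genes had 31 of 159 (19.5%) in 14 of 26 genes. Within 5 kb of Atp5b, which encodes the catalytic subunit of ATP synthase, were 8 of 11, at 0.485%, 1.37% and 0.758%. None of these 8 lay in its body, and all lay around the start of the next gene, Baz2a, 4 of them in the body of Baz2a. At Cox5a, a cytochrome oxidase subunit, were 4 of 7. Counting only sites inside gene bodies, the shares were 59 of 250 (23.6%) for developmental factors, 17 of 44 (38.6%) for ribosomal proteins and 10 of 76 (13.2%) for oxidative phosphorylation. Sites near 2 genes of a list count for each, and counted once the developmental factors had 124 of 381. Housekeeping genes had 15 of 128 (11.7%), among them Eef2, the elongation factor of translation, with 2 of 6, and Rab7, a GTPase of late endosomes, with 2 of 11.

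**Figure D4:**
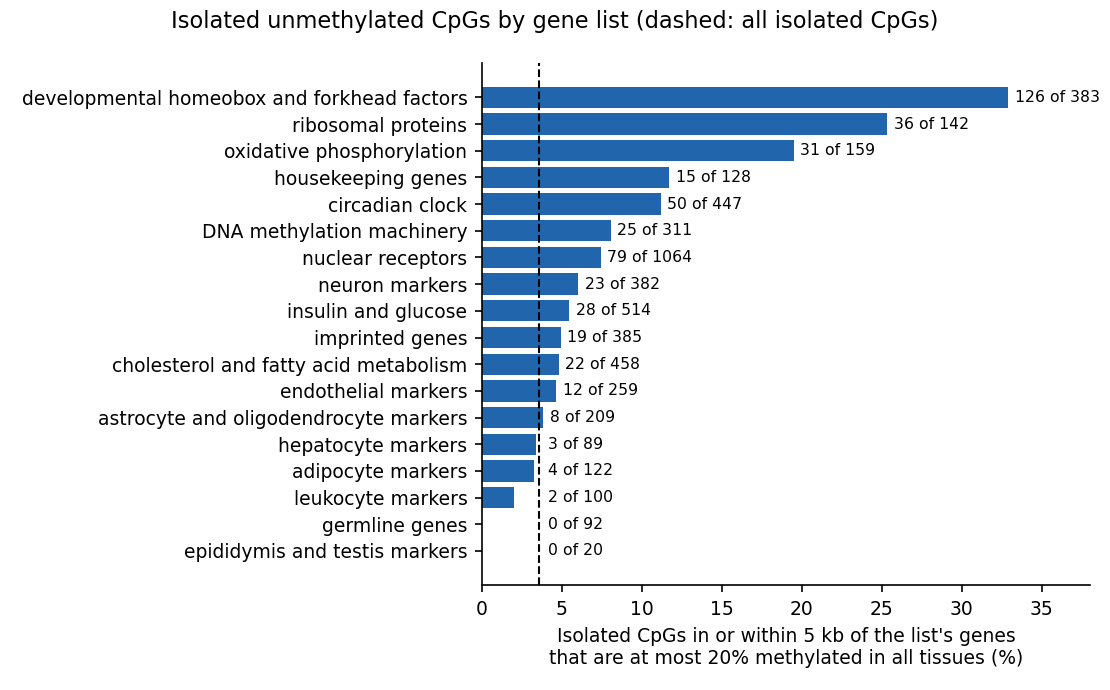
Share of isolated CpGs in or within 5 kb of the genes of each list that were at most 20% methylated in all tissues (x axis, %), with their number of the isolated CpGs beside each bar. The developmental factors stand at 32.9%, germline genes and epididymis and testis markers at 0, and the dashed line at 3.57% is the share over all isolated CpGs. That line includes isolated CpGs far from any gene.

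Circadian clock genes had 50 of 447 (11.2%) in 14 of 22 genes. The PAR bZIP output factors held most. Dbp had 11 of 27, 4 of them in its body, with medians of 1.51% in adipose, 2% in hypothalamus and 0.615% in liver. Tef had 9 of 9, 5 of them in its body, with medians of 1.31%, 1.79% and 1.26%. Genes of the DNA methylation machinery had 25 of 311 (8.04%) in 12 of 21 genes, led by Kmt2a, an H3 lysine 4 methyltransferase with a CXXC domain (7 of 20), followed by Mbd2, a methyl-CpG reader (3 of 8), the methyltransferase gene Dnmt3a (3 of 40) and Zbtb38, a methyl-CpG binding repressor (3 of 17). Nuclear receptors had 79 of 1064 (7.42%) in 22 of 40 genes. Nr2f2, an orphan receptor of veins and mesenchyme, had 8 of 8 with medians of 1.41%, 1.33% and 1.18%, and Rara, a retinoic acid receptor, 8 of 31. Insulin and glucose genes had 28 of 514 (5.45%), with Akt1, a kinase of insulin signalling, at 5 of 21 and Pfkl, the liver phosphofructokinase, at 4 of 14. Cholesterol and fatty acid genes had 22 of 458 (4.80%), with Acaca, which makes malonyl-CoA, at 4 of 24 and Insig1, a sterol sensor partner, at 4 of 10. Imprinted genes had 19 of 385 (4.94%), with Usp29 at 6 of 47 and Dlk1, an inhibitor of fat cell formation, at 4 of 14. Inside gene bodies the shares were 8.90% for circadian clock genes, 6.79% for the methylation machinery and 6.89% for nuclear receptors. They were 20 of 424 (4.72%) for insulin and glucose, 10 of 397 (2.52%) for cholesterol and fatty acid and 11 of 306 (3.59%) for imprinted genes.

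Among marker genes of cell types, neuron markers had 23 of 382 (6.02%), such as Gad2, a GABA synthesis enzyme, with 6 of 10 and Slc17a6, a vesicular glutamate transporter, with 5 of 9. Endothelial markers had 12 of 259 (4.63%), such as the VEGF receptor gene Flt1 with 6 of 66. The other VEGF receptor gene, Kdr, had 3 of 20, at 16.6% in hypothalamus, 3.01% in adipose and 2.50% in liver. Astrocyte and oligodendrocyte markers had 8 of 209 (3.83%), 6 of them near Olig2, a factor of oligodendrocyte fate, and 1 at Slc1a2, a glutamate transporter. The 6 lay within 5 kb of Olig2, and 0 of them in its body. Hepatocyte markers had 3 of 89 (3.37%), at the apolipoprotein genes Apoa2 and Apob. Adipocyte markers had 4 of 122 (3.28%), at Cidea, a lipid droplet protein, and Slc7a10, an amino acid transporter, and leukocyte markers 2 of 100 at Cd4 and Spi1. Germline genes had 0 of 92 in 14 genes (exact interval for the share of genes 0 to 23.2%) and epididymis and testis markers 0 of 20 in 6 genes (0 to 45.9%). Within 200 bp of a tRNA gene lay 39 isolated unmethylated CpGs (0.319%, interval 0.227 to 0.435), against 11 other isolated CpGs (0.00333%, 0.00166 to 0.00596) and 0.261% of clustered unmethylated CpGs (0.246 to 0.275).

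Of the 29 developmental factor genes with such sites, 17 had their highest median level in adipose, 9 in hypothalamus and 3 in liver. The genes named next were chosen after their values were seen, and the tissue differences were not tested. Six3, a homeobox factor of forebrain and eye, had 8 of 16 isolated CpGs in the set, with medians of 14.2% in hypothalamus, 2.54% in adipose and 1.77% in liver. At its site on chromosome 17 at position 85617529, hypothalamus had 19.5% of 133 reads in the BPA pool and 17.8% in the control pool, adipose 3.16% and 4.42%, and liver 1.86% and 1.51%. Both hypothalamus pools stood above all 4 others. Pax6, of eye and forebrain, had medians of 16.4% in hypothalamus, 3.82% in adipose and 2.90% in liver over 8 sites. Otx2, of forebrain and midbrain, had 16.3%, 1.32% and 3.92% over 3 sites, and Lhx2, of forebrain and eye, had 19.6%, 5.56% and 5.59% over 3. Other homeobox genes were lowest in hypothalamus, such as Lhx9 at 6.75% against 16.6% in adipose and 14.9% in liver over 1 site, and Meis2 at 5.35%, 6.58% and 6.32% over 7. Adipose had the highest medians at Hlx, a factor of gut and liver mesenchyme, with 18.5% against 7.61% in hypothalamus and 4.58% in liver over 3 sites, at Irx3, of limb and heart, with 15.5%, 13.6% and 5.33% over 4, and at Hoxa5, of body axis position, with 18.1%, 9.48% and 10.5% over 2.

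The comparison of BPA with control asked whether single sites among the isolated unmethylated CpGs differed between pools. A site was called at a difference of at least 5 percentage points and a deposited Fisher's exact p, adjusted by Benjamini-Hochberg over all tested sites of the tissue, under 0.05. In adipose, 46 of the 12235 sites were called (0.376%, exact interval 0.275 to 0.501), where 0.534% of all 1876099 tested sites were called. Of the 46, 26 were higher in the BPA pool, beside a background of 0.252% higher, and 20 lower, beside 0.283% lower. Other isolated CpGs were called at 0.992% and clustered unmethylated CpGs at 0.102%. At an unadjusted Fisher's exact p under 0.05 stood 1400 sites (11.4%), where the share of all tested sites was 10.1%. The test compares pooled reads, not animals.

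In hypothalamus the adjusted Fisher's exact test called 0 sites (exact interval 0 to 0.0301%), where the background over all tested sites was 0.00593% (0.00293% higher and 0.00299% lower in the BPA pool), and 404 sites (3.30%) had an unadjusted p under 0.05, where the share over all tested sites was 3.41%. In liver it called 0 sites (0 to 0.0301%), where 0.0258% were called (0.018% higher and 0.0078% lower), and 485 sites (3.96%) had an unadjusted p under 0.05, where the share was 4.21%. The deposited credible difference was above 0 in size for 2485 sites in adipose, 1070 in hypothalamus and 1144 in liver. Its share over all tested sites was not taken, so these counts have no background beside them. Over all tested sites with several methylated and several unmethylated reads, the squared difference between pools averaged 2.002 times the counting error in adipose. It averaged 1.20 times in hypothalamus and 1.22 times in liver. This excess was not taken for the isolated unmethylated CpGs alone. With p-values scaled by that excess, 0 of the 46 sites were called in adipose.

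The lower sites had a median difference of -10.45 points. The largest, of -20.3 points, was beside Tlx3, a homeobox factor that sets the glutamatergic fate of dorsal spinal cord neurons. The Tlx3 site had 6.64% of 226 reads in the BPA pool and 27% of 178 reads in the control pool of adipose (interval of the difference -27.7 to -13.1, adjusted Fisher p 0.000155). It had 5.36% of 168 and 20.6% of 136 reads in hypothalamus (unadjusted Fisher's exact p 6.97e-05), and 7.69% of 156 and 19.4% of 211 reads in liver (unadjusted Fisher's exact p 0.00151). All 3 tissues were lower in the BPA pool. Beside Prr16 the adipose pools had 2.45% of 327 reads in the BPA pool and 13.2% of 295 in the control pool, and in Bcl2l1, the inhibitor of apoptosis BCL-XL, 1.91% of 524 and 8.35% of 527. The site in Gm36199, printed before Gm36486, had 5.69% of 299 reads in the BPA pool and 17.9% of 296 in the control pool of adipose, but 2.02% and 2.86% in hypothalamus and 6.51% and 7.11% in liver. Lower too were sites in 9330175M20Rik (7.72% in BPA and 20.9% in control), Gm40527 (1.05% and 11.8%), Add2, a spectrin partner (2.88% and 11.2%) and Evx1os (0.576% and 6.12%), before H2-T3 (9.09% and 19.8%), and in no gene on chromosome 19 (1.47% and 11.7%). Their adjusted p ran up to 0.0258 for these 10.

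The higher sites rose by a median of 8.29 points. Tfap2a, a factor of neural crest and skin, had 6.92% of 318 reads in the BPA pool and 0.341% of 293 in the control pool of adipose beside the gene (adjusted Fisher p 0.00616), 6.47% and 4.44% in hypothalamus, and 2.07% and 3.85% in liver. Srf, a factor of growth and muscle genes, had 11.2% of 242 reads in the BPA pool and 1.40% of 214 in the control pool. Plgrkt, a plasminogen receptor, had 22.2% of 383 and 10.4% of 328, and the site before Taf12, a TFIID subunit, 19.5% of 118 and 1.96% of 102. In Foxe3, a lens forkhead factor, 5.82% of 275 reads were methylated in the BPA pool and 0% of 257 in the control pool. Also named by the smallest p were B230311B06Rik (11.7% in BPA and 2.88% in control), Bcam, a laminin receptor (8.07% and 1.47%), Actr5, a chromatin remodelling subunit (20.1% and 3.03%), Scamp1, of membrane traffic (7.41% and 0.709%), and Grhl1, an epidermal factor (14.9% and 4.05%). Grhl1 was higher in the BPA pool in liver as well, at 16.9% and 9.15%, and lower in hypothalamus, at 9.84% and 13.4%.

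**Figure D5:**
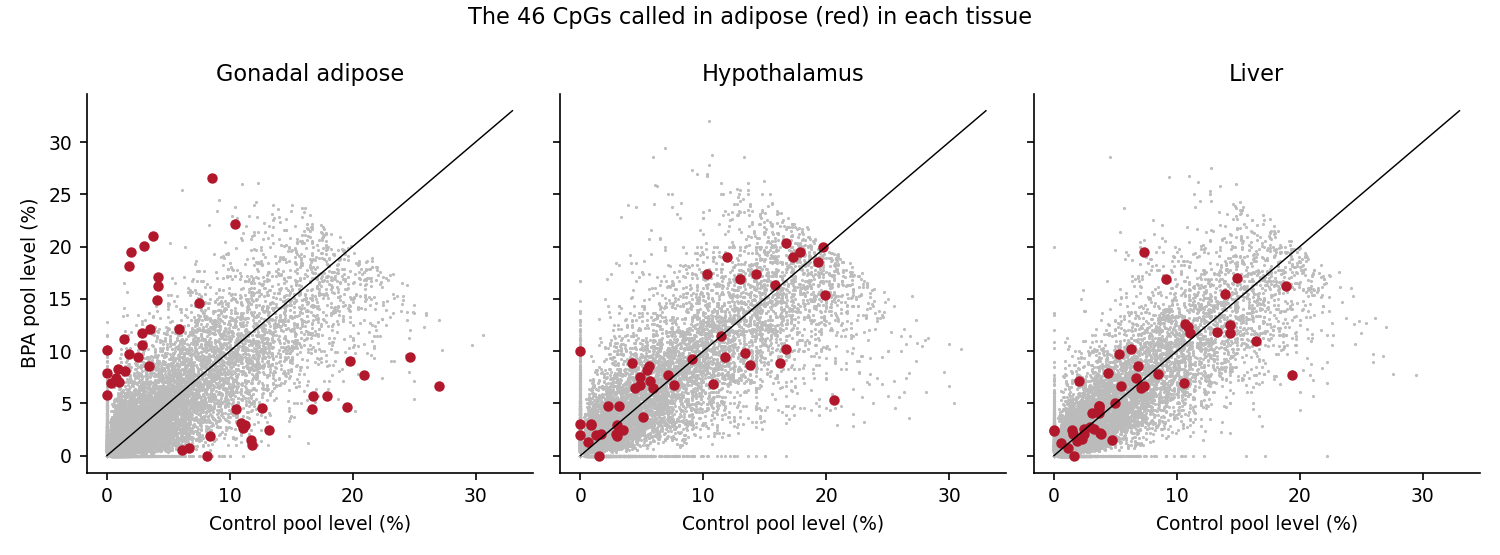
Methylation level of each isolated unmethylated CpG in the BPA pool (y axis, %) against the control pool (x axis, %) of each tissue. Red points are the 46 sites called in adipose, 26 above and 20 below the line of equal levels there, and grey points the other sites.

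Of the 46 sites, 29 lay in a gene body, and 5 lay in no gene and over 5 kb from any. No pair of them lay within 1 kb, 18 of the 45 off chromosome 18 (40%) lay within 1 kb of a gene start, and 29 (63.0%) lay within 500 bp of a clustered unmethylated CpG, beside 44.0% and 72.5% of all isolated unmethylated CpGs. Their median coverage in the shallower adipose pool was 254.5 reads. The difference had the same sign in hypothalamus for 21 of 46 and in liver for 26 of 46. An unadjusted Fisher's exact p under 0.05 was reached by 3 in hypothalamus, of which Bcl2l1 and B230311B06Rik differed in the direction opposite to adipose. In liver it was reached by 4, of which Aldh1a2 and the site in no gene on chromosome 19 differed in the opposite direction.

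Summed over all 12235 sites, the pools of adipose were nearly level, with 4.501% of 3084633 reads methylated in BPA and 4.508% of 2761456 in control, a difference of -0.0074 points (Newcombe interval -0.0411 to 0.0263). In liver 4.29% of 2483454 reads were methylated in BPA and 4.31% of 2665322 in control, a difference of -0.0139 points (-0.0489 to 0.0212). In hypothalamus the levels were 5.26% of 1772387 reads in BPA and 4.98% of 1716927 in control, a difference of 0.282 points (0.236 to 0.328). There 6336 sites were higher and 4684 lower in the BPA pool. The difference was 0.360 points (0.308 to 0.413) at the 2710 sites that averaged at most 1% in the other tissues, and 0.0252 points (-0.160 to 0.211) at the 1604 sites above 10% there. Clustered unmethylated CpGs of hypothalamus differed by 0.439 points (0.435 to 0.443), at 1.90% in BPA and 1.46% in control. Each pool is 1 value of its group, and the difference between groups of animals was not tested.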

How the data were processed

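DNA methylation was measured by RRBS in 18 samples, 3 per treatment and tissue. Reads were aligned with BSMAP to GRCm38 (mm10), per the submitters' processing notes; the version, the caller, trimming of repaired ends and removal of PCR copies are not given in the sources used here. Per CpG, the deposited tables give, per the file headers, the count of covering reads in each pool, the methylated fraction, a Fisher p-value, and a nominal and a credible difference, treated here as a score of the authors' own. Each pool joins 3 samples, and PCR reads are not independent molecules.

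The sites and the 18 gene lists (420 entries) were chosen with earlier results of these data known. A tissue level is the read-weighted mean fraction of both pools. The deposited p-value, which recomputing gave within 1% for 2000 of these sites per tissue, was adjusted by Benjamini-Hochberg over the nuclear sites of a table that both pools covered with 10 or more reads. Intervals are 95% Clopper-Pearson for shares and Newcombe for differences. A Wald test set the log odds ratios of 2 tissues against each other, with 0.5 added to each count. Gene bodies and starts came from RefSeq tables of GRCm38.p6, which are not complete; the starts hold none of chromosome 18. Python 3.11.15, NumPy 2.4.6, SciPy 1.17.1 and pandas 2.3.3 were used. Neighbour counting, the adjustment and the calling were checked on simulated data, in which reads varied by counting error alone. The Wald test and the Newcombe intervals were not checked in this way. Named sites are, per direction, the 10 called sites with the smallest p, the 5 deepest, the 5 deepest with no methylated read, the 5 with the widest tissue gap and the 5 on either side of the limit. Named genes are the 10 with the most sites, ties included, and up to 2 per list. Some are not reported here. The sequences shown were among those with the most reads of their kind. They were picked only from sites in promoter windows with 50 bases on each side wholly before the gene start.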

Additional observations from a re-analysis of the deposited data

Results flagged for a closer look

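The CpG at position 59195674 of chromosome 19, in no gene and over 5 kb from any, had pool differences that differed between adipose and liver. In adipose it had 1.47% of 204 reads in the BPA pool and 11.7% of 222 in the control pool, a difference of -10.2 points. In liver it had 19.5% of 149 reads in the BPA pool and 7.29% of 192 in the control pool, a difference of 12.2 points. In hypothalamus it had 15.4% of 130 reads in the BPA pool and 19.9% of 141 in the control pool. The Wald test of the difference between the tissues' log odds ratios on pooled reads gave a Benjamini-Hochberg adjusted p of 0.0106 over all 1615315 sites tested, of which 806 (0.0499%) passed. It was the only 1 of the 12235 sites to pass for adipose against liver (0.00817%), with 741 at an unadjusted Wald p under 0.05. For adipose against hypothalamus 0 passed, beside 413 of all 1557574 sites tested (0.0265%), and 695 had an unadjusted Wald p under 0.05. For hypothalamus against liver 0 passed, beside 56 of all 1492177 (0.00375%), and 374 had an unadjusted Wald p under 0.05. The share of all sites under that unadjusted limit was not taken, so the unadjusted counts have no background.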

How the results depend on the processing

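The number of sites was 12235, and 1212 with no listed neighbour or 2821 with neighbours counted within 200 bp. The limit of 10% left 8440, and 50 reads per pool 9404. For these choices, in the order no neighbour, 200 bp and the 10% limit, the pooled level in adipose was 5.47%, 5.91% and 2.43%, in hypothalamus 6.17%, 7.05% and 2.51%, and in liver 5.17%, 5.76% and 2.23%. With equal weight for each site, an alternative chosen after seeing the data, it was 4.47%, 5.25% and 4.41%, and the hypothalamus difference was 0.232 points. The difference of BPA minus control in adipose was -0.156, -0.0780 and 0.0401 points, in hypothalamus 0.326, 0.204 and 0.416, and in liver 0.120, 0.0595 and -0.0904, so its sign held in hypothalamus and turned in adipose and liver. The share within 1 kb of a gene start was 34.1%, 31.8% and 50.7%, and 61.7% lay within 5 kb. Called sites in adipose were 21 at a minimum of 10 points, 21 under the 10% limit and 44 without the deepest 0.1% of sites. They were 51 with 20 reads, 55 with no minimum difference and 0 with p-values scaled by the excess over counting error. No share over all tested sites was taken for changed settings of the call or for the credible difference, so these counts have no background. The authors' credible difference marked 2485 adipose, 1070 hypothalamus and 1144 liver sites, where every other alternative gave 0 calls in hypothalamus and liver. The cause was not tested. No paired analysis was possible because the tables hold 1 pool per group and no value per sample, and for the same reason no replicate could be left out. Depth limits single sites most in hypothalamus, where the median site had 116 to 118 reads.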
